A study of Mus musculus with 2 samples.

Results

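Cytosolic ribosomal protein genes were followed in the immune cells of mouse melanomas with and without a knockout of FDPS. They were the genes whose symbol begins with Rpl, Rps or Rplp and a digit, plus Rpsa, without pseudogene rows and without the ribosomal S6 kinases. Of the 32285 genes in the count matrices, 86 met this rule, 52 with large subunit names and 34 with small subunit names. Not every symbol names a ribosomal protein. Rps19bp1 encodes a binding protein of Rps19 and Rpl7l1 a factor of ribosome assembly in the nucleolus, so neither is a subunit of the cytosolic ribosome.

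The study raised subcutaneous tumours from the mouse melanoma line B16-F10, either FDPS-knockout or labelled WT (called control here), to describe the immune cells of FDPS-deficient tumours. FDPS makes farnesyl diphosphate in the mevalonate pathway. Both groups were collected on day 14 after injection, with 3 tumours each, and viable CD45-positive cells were sorted. CD45 marks the white blood cells of the host, while the knockout was made in the tumour line, of which a few cells remained after the sort. The strain and age of the hosts, and whether the knockout line was 1 clone, are not given in the sources used here. Each group gave 1 droplet library with no map from cells to tumours. There was thus no replicate and no test, every difference is between 2 libraries, and all intervals are 95% intervals for counting error only.

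The ribosome is built from a large and a small subunit, each of RNA and many proteins that are needed in nearly equal numbers. The messages for these proteins are among the most abundant in a cell and are high in growing and dividing lymphocytes. Many of them begin with a cytosine followed by a run of pyrimidines, the 5′ terminal oligopyrimidine or TOP tract, through which the growth kinase mTORC1 and the RNA-binding protein LARP1 control their translation and stability.

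A TOP-like start was sought in RefSeq promoters (GRCm38.p6) as a C followed by at least 4 bases that are each C or T, beginning within 5 bases of an annotated start, on the transcribed strand. It was found in 30 of the 66 members that had a promoter entry (45.5%, exact interval 33.1 to 58.2). Among 26959 other genes with an entry the share was 21.1%, and among all 32851 promoter windows 18.3%. The runs were 5 to 20 bases long, with a median of 8. The windows below cover 15 bases before to 15 bases from the start, with the run in capitals. They belong to members from both ends of the range of differences described further on. Rplp0 and Rpl37a show 1 member of each end without such a run at the RefSeq start. For Rpl37a the gene begins at position 72711290 in the GENCODE annotation, past the end of its window, where no run was sought.
Rpl15 (chr14:18270972-18271001, minus strand): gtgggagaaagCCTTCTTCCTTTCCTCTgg
Rps18 (chr17:33955651-33955680, minus strand): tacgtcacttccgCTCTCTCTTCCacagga
Rps2 (chr17:24720048-24720077, plus strand): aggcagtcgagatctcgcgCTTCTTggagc
Rplp0 (chr5:115559452-115559481, plus strand): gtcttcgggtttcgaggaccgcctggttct
Rps27 (chr3:90213634-90213663, minus strand): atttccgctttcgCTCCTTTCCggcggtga
Rpl38 (chr11:114668565-114668594, plus strand): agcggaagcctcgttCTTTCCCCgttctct
Rpl37a (chr1:72711245-72711274, plus strand): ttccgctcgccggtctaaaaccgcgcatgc

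The knockout library held 9130 cell barcodes and 127186298 unique molecular identifiers (UMIs, each counting 1 captured RNA molecule), and the control library 10882 barcodes and 208936136 UMIs. After filtering, 8697 and 9415 cells remained, and 30 barcode sequences occurred in both libraries. Cells were named by markers detected in each cell. Cells that passed the gates of more than 1 lineage, 10.0% of knockout and 13.3% of control cells, were left out. The melanoma gate allowed no UMI of Ptprc, the gene of CD45. Immune cells with Ptprc and melanoma markers, such as doublets with a melanoma cell, were therefore not left out by it. Also in no class were 1143 knockout and 275 control T cells without a subtype. In the end 10 classes had at least 50 cells in each library. In the 7 knockout and 212 control cells gated as melanoma, Fdps was at 69.5 CPM (UMIs of the gene per 1000000 UMIs of its class, exact interval 44.1 to 104) and 352 CPM (340 to 365). It was also lower in the knockout library in immune cells, for example at 27.5 and 88.3 CPM in CD8 T cells. RNA of pigment genes was unequal between the libraries in the immune classes. Summed over 5 such genes of melanoma cells (Mlana, Pmel, Tyr, Dct and Tyrp1) it stood at 9.48 CPM in knockout and 2718 CPM in control NK cells, against 14887 CPM in control melanoma cells, which corresponds to 0.0637% and 18.3% of the UMIs of NK cells if it came with the profile of those cells. In CD8 T cells this estimate was 0.0515% and 3.82%, and in monocytes and macrophages 0.757% and 5.28%. The control melanoma cells themselves had 18.7% ribosomal protein UMIs.

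Ribosomal protein transcripts took a smaller share of all UMIs in the knockout library in each of the 10 classes. CD8 T cells, the cytotoxic T cells, had 17.1% in knockout and 23.5% in control, a ratio of 0.726 (counting interval 0.725 to 0.727). Regulatory T cells (Treg), gated on Foxp3, had 12.9% and 20.7%, a ratio of 0.623. B cells had 13.8% and 22.0%, a ratio of 0.625. Both of these classes held few cells, 166 and 74 Treg and 131 and 150 B cells.

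NK cells, the innate cytotoxic lymphocytes, had a share of 14.6% in the knockout library and 19.5% in control, a ratio of 0.749 (0.747 to 0.752). CD4 T cells without Foxp3 had 14.4% and 17.6%, a ratio of 0.818, from 678 and 52 cells. Among antigen-presenting cells, type 2 conventional dendritic cells (cDC2) had 13.4% and 16.8%, and mature dendritic cells, which express Ccr7, had 8.51% and 12.9%. The lymphoid and dendritic classes thus showed the same direction, with ratios from 0.623 to 0.818.

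Macrophages, gated on C1q genes, had 8.90% in knockout and 12.0% in control, and monocytes 9.52% and 11.0%, the ratio nearest to 1 among the 10 classes (0.864). That of monocytes was 0.982 with 1 more marker in each lineage gate (10.4% and 10.6%) and 0.945 with melanoma RNA subtracted (9.50% and 10.1%). In the wider gate of monocytes and macrophages the shares were 9.09% and 11.8%, a ratio of 0.770 (0.769 to 0.772). Neutrophils, short-lived cells that no longer divide, had 2.60% and 3.73%, the lowest of the 10 classes in both libraries, while CD8 T cells had the highest in both. Over the 10 classes the shares of the libraries had a Pearson r of 0.95 and a Spearman rho of 0.82, as a description of pooled values that share a library.

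Single cells of the libraries overlapped. From the lower to the upper quartile, CD8 T cells lay between 10.5% and 19.4% in the knockout library and between 18.0% and 26.3% in the control library. In NK cells these ranges were 9.27% to 16.5% and 9.71% to 22.5%. The median cell was lower in the knockout library in 10 of 10 classes. Both dendritic classes below the limit on cell number had the same order, with 10.6% and 16.9% in the 57 and 35 type 1 conventional cells and 12.2% and 15.8% in the 102 and 16 plasmacytoid cells.

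**Figure D1:**
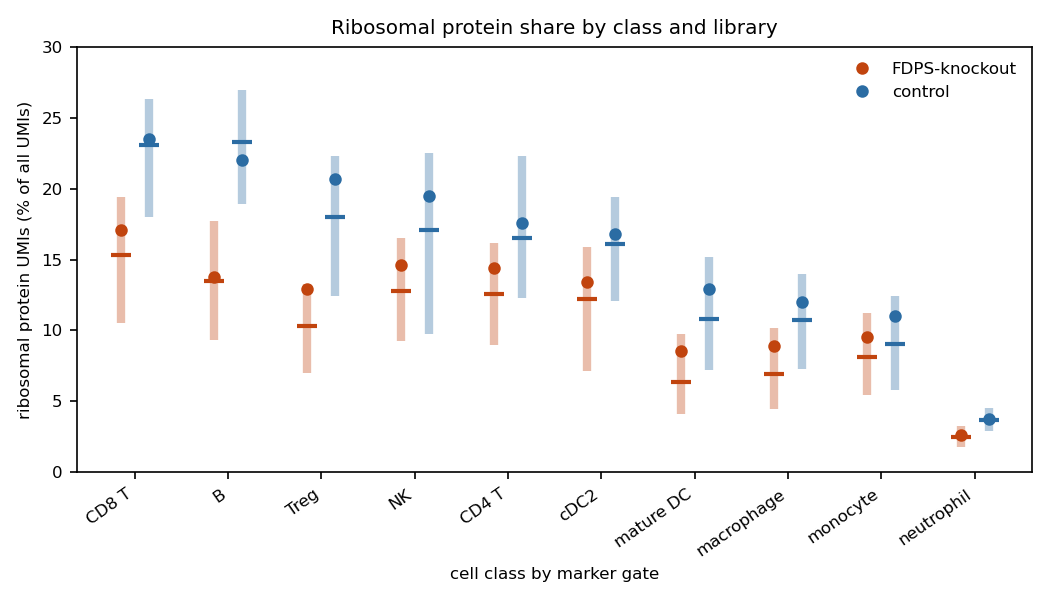
Share of UMIs from the 86 ribosomal protein genes (vertical axis, % of all UMIs) in 10 cell classes (horizontal axis) of the FDPS-knockout library (orange) and the control library (blue). Points are pooled shares, bars run from the lower to the upper quartile of cells and dashes are median cells; the knockout point lies below the control point in all 10 classes, from 17.1% against 23.5% in CD8 T cells to 2.60% against 3.73% in neutrophils.

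The rest of the transcriptome differed between the libraries too, and a share depends on it. Genes that span over 100 kb gave 18.2% of the UMIs of knockout and 11.0% of control CD8 T cells, 21.2% and 14.5% in NK cells, and 18.2% and 12.6% in monocytes and macrophages. The nuclear RNA Malat1 gave 1.15% and 0.560% of UMIs in CD8 T cells, but 1.76% and 1.70% in CD4 T cells and 1.85% and 1.87% in monocytes. Of the 86 members, 82 span less than 10 kb. When the total was limited to genes of up to 25 kb, an alternative chosen after seeing the data, the share of ribosomal protein UMIs was 30.6% in knockout and 34.6% in control CD8 T cells, a ratio of 0.884. The ratio became 0.910 for NK cells and 0.875 for monocytes and macrophages. The share remained lower in the knockout library in 10 of 10 classes, with ratios of 0.722 to 0.973. Subtraction of melanoma RNA, also chosen after seeing the data, left the ratios of CD8 T and NK cells at 0.720 and 0.747.

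The number of ribosomal protein UMIs per cell did not follow the share in every class. The median CD8 T cell held 2060 such UMIs in knockout and 4901 in control, beside 11210 and 16208 UMIs of other genes. The median NK cell held 1410 and 1339, beside 9086 and 6424 UMIs of other genes. In B cells the medians were 1222 and 1392, beside 7519 and 4724. In NK and B cells the libraries thus lay closer together in ribosomal protein UMIs per cell than in UMIs of other genes, while in CD8 T cells both were lower in the knockout library. UMIs per cell also move with the depth of each library.

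Cells of similar depth and cycle state kept the direction. Dividing cells, with at least 3 of 6 division genes, made up 32.4% of knockout and 58.6% of control CD8 T cells. The share of ribosomal protein UMIs was 18.0% and 23.5% in dividing CD8 T cells and 15.9% and 23.4% in the others. Control cells thus had nearly equal shares in both states, and knockout cells had less outside division. In monocytes and macrophages, of which 4.76% and 19.4% were dividing, the shares were 11.3% and 13.3% in dividing cells and 8.81% and 11.0% in the others.

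CD8 T cells were also split by whether a cell held at least 1 UMI of a gene, with no correction for depth or free RNA. Outside division, those with a UMI of Tcf7, a factor of naive and memory-like T cells, had 17.4% in knockout and 24.1% in control. Those without it had 14.8% and 23.3%. The 34 and 613 cells with a UMI of Gzmc, a granzyme of strongly activated cells, had 18.8% and 24.2%. The Gzmc cells were taken with dividing cells included, unlike the Tcf7 subsets. The part of such subsets in the difference between the libraries was not tested.

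The share was also higher in cells with more UMIs in CD8 T cells, NK cells, and monocytes and macrophages. Knockout CD8 T cells of 5000 to 10000 UMIs had 11.9% and control ones 16.9%. At 10000 to 20000 UMIs the shares were 15.9% and 20.6%, and at 20000 to 40000 UMIs 17.9% and 24.1%. NK cells of 10000 to 20000 UMIs had 15.0% and 20.9%, and monocytes and macrophages of that depth 8.16% and 10.0%. The control library lay above the knockout library in every depth range compared in these 3 classes.

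**Figure D2:**
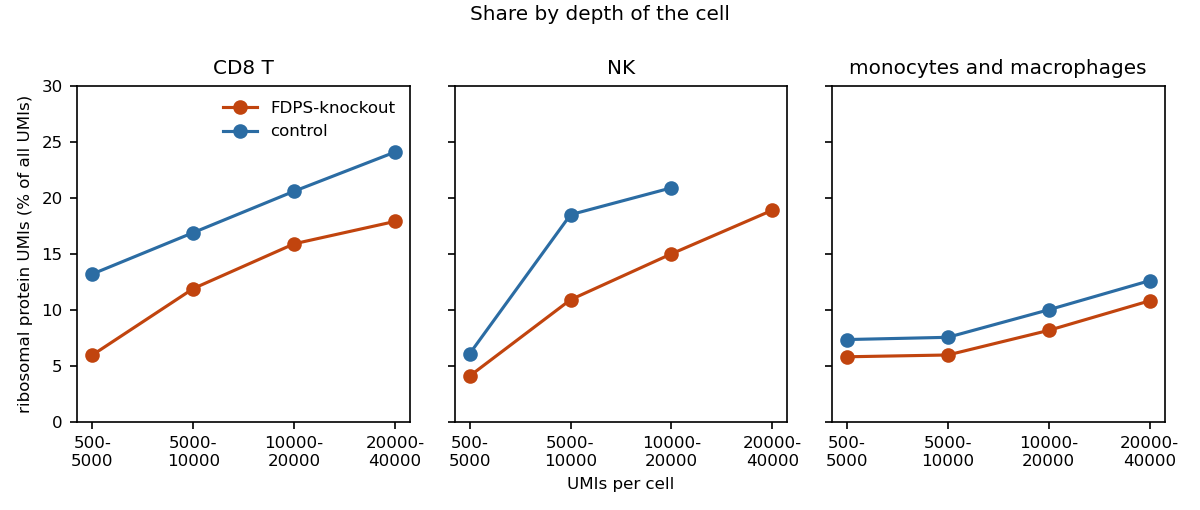
Pooled share of ribosomal protein UMIs (vertical axis, % of all UMIs) in cells grouped by their UMIs (horizontal axis, UMIs per cell) for 3 classes, with the FDPS-knockout library in orange and the control library in blue; groups under 20 cells are not drawn. The share is higher in deeper cells, and the control library lies above the knockout library in each shared group, for example at 20.6% against 15.9% in CD8 T cells of 10000 to 20000 UMIs.

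Gene by gene, the knockout level was set over the control level as a log2 ratio of CPM plus 5, with CPM taken over all UMIs of a class. CPM are not per length, so each gene was compared only with itself. A gene entered when its mean over both libraries reached 10 CPM, and it was called past 1.5-fold. Of the 86 members, 83 passed in all 10 classes. Rpl3l, a paralog known from muscle, passed only in neutrophils, and Rpl10l and Rpl39l, known from the male germ line, passed in none. 

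Most members were lower in the knockout library, by unequal amounts. In CD8 T cells 30 of 83 were past 1.5-fold lower and 0 past 1.5-fold higher, where 8.57% and 18.7% of all tested genes were lower and higher. The median member stood at -0.48, against 0.14 for all tested genes. In NK cells 24 were lower and 0 higher, with a background of 11.9% and 13.7% and medians of -0.45 and 0.10. Monocytes and macrophages had 22 lower and 0 higher, with a background of 14.6% and 14.9% and medians of -0.45 and -0.00. With only genes of up to 25 kb in the total, the counts of lower members were 5, 2 and 10 in these 3 classes, and in CD8 T cells Rps27 (0.64) and its copy Rps27rt (0.71) were then past 1.5-fold higher. Scaling by the median ratio of genes gave 50 and 39 lower members in CD8 T and NK cells, and 1 more marker in each gate 15 in NK cells. The counts therefore depend on what the total holds, on the scaling and, in NK cells, on the gate.

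The other classes varied around this picture. Treg had 57 of 83 members lower, with a background of 13.2% lower and 21.4% higher, and B cells 55, with a background of 13.7% and 14.5%. In mature dendritic cells 43 were lower (background 13.8% and 22.0%), and in macrophages alone 34 (15.1% and 15.4%). In cDC2 10 were lower (10.6% and 15.2%), as in monocytes alone (13.5% and 15.5%), where the share of members was near or below that of all genes. CD4 T cells had 3 lower (8.87% and 13.6%), below the background. Neutrophils had 47 of 84 lower (27.1% and 20.3%), from few UMIs per gene. No member was past 1.5-fold higher in any of these classes.

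Both subunits took part. In CD8 T cells 18 of 49 tested large subunit members and 12 of 34 small subunit members were past 1.5-fold lower, with medians of -0.53 and -0.46. In NK cells they were 15 and 9, with medians of -0.46 and -0.44. The sum of large subunit UMIs over small subunit UMIs was 1.27 in knockout and 1.29 in control CD8 T cells, 1.29 and 1.32 in NK cells, and 1.30 and 1.35 in monocytes and macrophages. In NK cells of 2000 to 40000 UMIs the ratio of these ratios turned from 0.979 to 1.01. The balance of the subunits thus differed far less between libraries than the share did.

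Across the 10 classes, 59 of the 83 members had a log2 ratio below 0 in every class, 33 were past 1.5-fold lower in at least 5 classes and 13 in none. Of the 4521 genes of any kind tested in all 10 classes, 11.7% were below 0 in every class, 9.84% were past 1.5-fold lower in at least 5 and 53.9% in none. These counts describe classes of the same libraries, which are not independent. The 10 classes show a gradient from Rpl15 and Rps18 to Rps29 and Rpl37a that recurs from class to class.

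**Figure D3:**
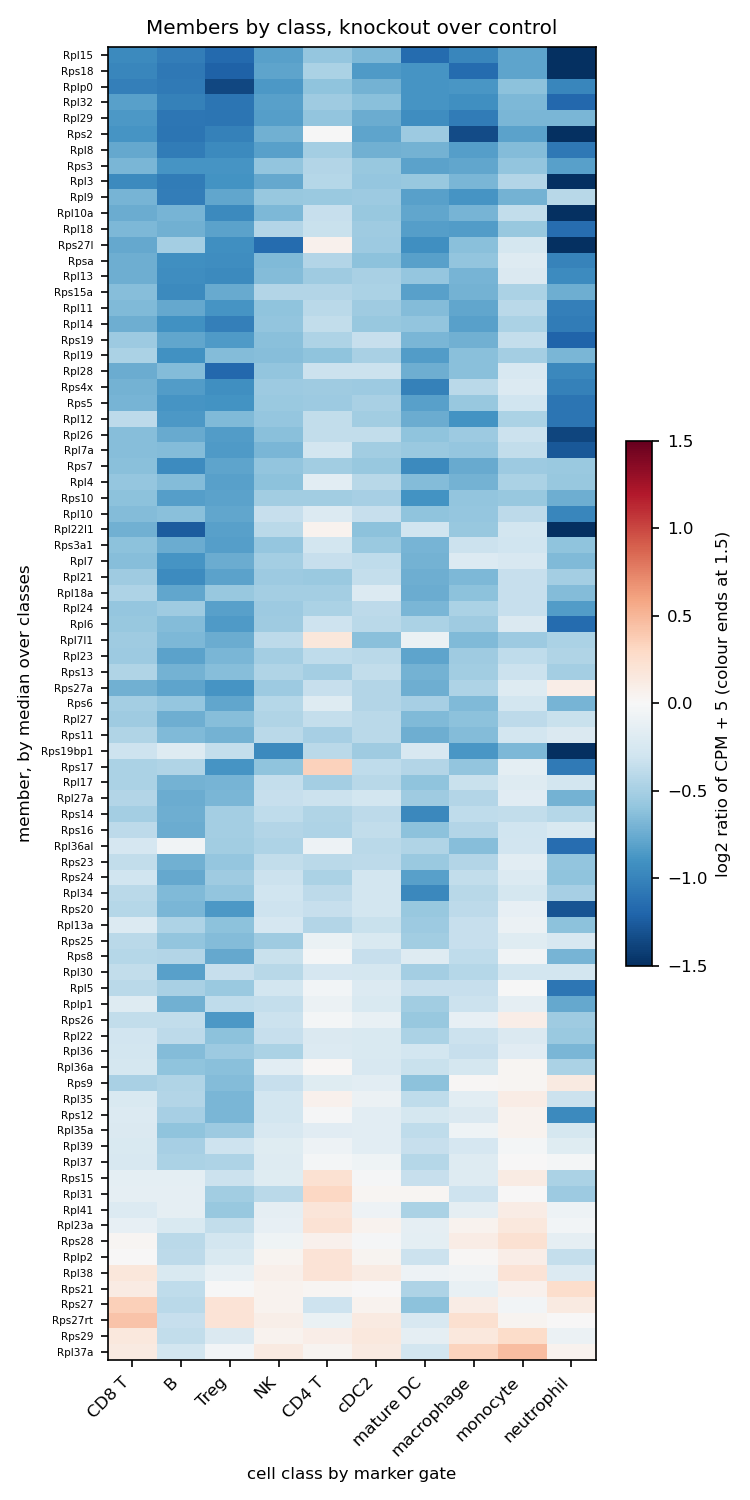
Log2 ratio of CPM plus 5, knockout over control (colour, blue lower and red higher in the knockout library), for 83 members (vertical axis, ordered by their median over classes) in 10 cell classes (horizontal axis). Blue fills most of the map; the members at the bottom, such as Rps29 and Rpl37a, are near 0 or slightly above it in most classes.

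Rplp0 and Rpl29 were past 1.5-fold lower in 10 of 10 classes. Rplp0 encodes the base of the stalk that recruits elongation factors. It was at 2109 CPM in knockout and 4321 CPM in control CD8 T cells (log2 ratio -1.03), at 1344 and 2448 CPM in NK cells (-0.86) and at 817 and 1410 CPM in monocytes and macrophages (-0.78). Over the 10 classes Rplp0 ranged from -1.36 in Treg to -0.60 in CD4 T cells. Its partners at the tip of the stalk did not share the size of this difference. Rplp1 was at 3987 and 4539 CPM (-0.19) and Rplp2 at 2567 and 2554 CPM (0.01) in CD8 T cells.

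Rpl29 stood at 867 and 1574 CPM in CD8 T cells (-0.86) and at 481 and 932 CPM in monocytes and macrophages (-0.95). Rpl15, whose start carries a TOP-like run of 17 bases, was at 1308 and 2555 CPM in CD8 T cells (-0.96), 1030 and 1826 CPM in NK cells (-0.82) and 618 and 1178 CPM in monocytes and macrophages (-0.93). Rpl3, a protein near the peptidyl transferase centre, was at 1261 and 2463 CPM in CD8 T cells (-0.96). Rpl32 and Rpl8 were past 1.5-fold lower in 9 classes each, as was Rpl15, and Rpl32 was at 1494 and 2734 CPM in monocytes and macrophages (-0.87). With only genes of up to 25 kb in the total, Rplp0, Rpl29 and Rpl15 in NK cells came to -0.58, -0.55 and -0.55, short of 1.5-fold.

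Among small subunit members, Rps18 and Rps2 had the lowest values in CD8 T cells and in monocytes and macrophages, while in NK cells Rps27l and Rps19bp1, described further on, were lower. Rps18, a protein of the head of the small subunit, was at 2308 and 4545 CPM in CD8 T cells (-0.98), 1899 and 3298 CPM in NK cells (-0.79) and 731 and 1530 CPM in monocytes and macrophages (-1.06). Rps2, which lines the entry of the messenger channel, was at 711 and 1690 CPM in monocytes and macrophages (-1.24), the lowest value of any member there, and at 2078 and 3820 CPM in CD8 T cells (-0.88). In CD4 T cells, with 52 control cells, Rps2 was at 1541 and 1555 CPM (-0.01). Rps2 thus varied more between classes than Rps18, which was lower in all 10, by 1.5-fold or more in 9.

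A set of short members stood near or above 0. Rps27, a zinc-finger protein of the small subunit, was at 2096 CPM in knockout and 1633 CPM in control CD8 T cells (0.36), and at 2511 and 2424 CPM in NK cells (0.05). Its retrocopy Rps27rt was at 98.7 and 72.1 CPM in CD8 T cells (0.43), and how reads were split between the near-identical copies is uncertain. Rps29 was at 3669 and 3291 CPM in CD8 T cells (0.16) and 3506 and 3107 CPM in monocytes and macrophages (0.17). Rpl37a was at 2389 and 1863 CPM in monocytes and macrophages (0.36), at 3281 and 2996 CPM in CD8 T cells (0.13) and at 3169 and 2886 CPM in NK cells (0.13). Rpl38, which is known to act in the translation of homeobox messages in embryos, was at 2698 and 2397 CPM in CD8 T cells (0.17). Rps21 was at 2347 and 2266 CPM in NK cells (0.05), and Rps28 at 1920 and 1746 CPM in monocytes and macrophages (0.14). None of these was past 1.5-fold in the 3 classes, and B cells and mature dendritic cells differed from them, with Rps29 at -0.37 and -0.13 and Rpl37a at -0.27 in both. In mature dendritic cells Rps27 was past 1.5-fold lower, at 1119 and 1718 CPM (-0.62).

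Since members differed by unequal amounts, their parts of the summed ribosomal protein UMIs shifted. A larger part in the knockout library in every class was found for 14 members, among them Rpl37a, Rps29, Rpl38, Rps21, Rps28, Rplp2, Rpl41 and Rpl39. A smaller part in every class was found for 17, among them Rpl15, Rps18, Rplp0, Rpl32, Rpl29 and Rpl8. Shifts past 1.5-fold were few, with 6 members in CD8 T cells, 6 in monocytes and macrophages and 2 in NK cells. These counts did not require 10 CPM, and in CD8 T cells Rpl39l, at 72 and 41 UMIs, was past 1.5-fold by this measure. In NK cells of 2000 to 40000 UMIs the count was 0.

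Coding length, which the choice of members did not use, ran with this order. Over the 83 members the log2 ratio had a Pearson r with the log of coding length of -0.65 in CD8 T cells, -0.55 in monocytes and macrophages and -0.56 in NK cells, and of -0.65 to -0.36 over the 10 classes. These values are across genes that share 2 libraries and are not independent. Over all tested genes the sign was opposite, with r of 0.40 (8002 genes) in CD8 T cells, 0.28 (8093 genes) in monocytes and macrophages and 0.30 (8284 genes) in NK cells. Other features were read as well, and coding length had the strongest r over members among them. Transcript length had r of -0.43 to -0.23 over members, the number of exons -0.48 to -0.16 and gene span -0.42 to -0.21. GC content of the transcripts had r of only -0.10 to 0.08 over members.

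Ordered by coding length, the median in CD8 T cells was -0.23 for the 28 shortest members (75 to 396 bases), -0.51 for the 27 middle ones (399 to 552 bases) and -0.66 for the 28 longest (564 to 1257 bases). Past 1.5-fold lower were 3, 8 and 19 of them. Other genes of the same coding lengths had medians of -0.30, -0.35 and -0.07. In NK cells the members' medians were -0.27, -0.52 and -0.58, beside -0.30, -0.31 and -0.07 for other genes. Monocytes and macrophages had -0.18, -0.51 and -0.58, beside -0.35, -0.37 and -0.15. In these 3 classes the median of the shortest members thus lay near or above that of other short genes, while the longest members lay below other genes of their length.

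**Figure D4:**
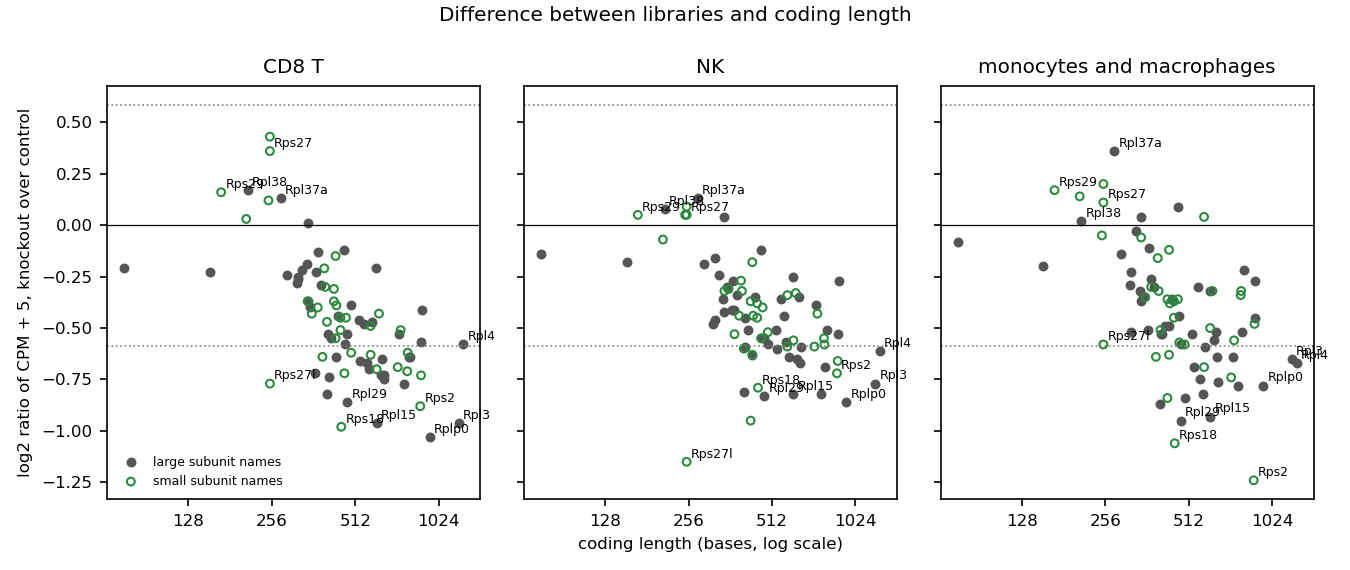
Log2 ratio of CPM plus 5, knockout over control (vertical axis), against coding length in bases (horizontal axis, log scale) for 83 members in 3 classes; filled points have large subunit names, open points small subunit names, and dotted lines mark 1.5-fold. Short members such as Rps29 and Rpl38 lie around 0 and longer ones such as Rplp0 and Rpl3 well below it, with Rps27l apart from the other short ones.

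A few members have paralogs with their own pattern, and here the pair was read as the percentage of its UMIs that came from the paralog, so that the total cancels. Rps27l, a paralog of Rps27 that p53 is known to induce, gave 10.2% of the pair in knockout and 20.0% in control CD8 T cells (exact intervals 9.96 to 10.4 and 19.7 to 20.2). It gave 8.09% and 16.3% in Treg and 23.9% and 34.5% in macrophages. In mature dendritic cells, where Rps27l was at 538 and 1024 CPM, it gave 32.5% and 37.3%, the highest percentage of the 10 classes in both libraries. B cells, at 4.72% and 5.10%, and CD4 T cells, at 5.81% and 4.52%, had overlapping intervals or the opposite order. After subtraction of melanoma RNA the order in B cells was reversed too, at 4.70% and 2.57%.

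NK cells had the lowest log2 ratio of a member in Rps27l, at 136 and 307 CPM (-1.15), with 5.14% and 11.3% of the pair. Melanoma cells of the control library held 38.2% Rps27l in this pair. After subtraction of RNA with their profile, an alternative chosen after seeing the data, the percentages of NK cells were 5.12% and 7.22% and the log2 ratio -0.60. In NK cells of 2000 to 40000 UMIs it was -0.56, short of 1.5-fold. Rps19bp1, which is no ribosomal protein, went from 15.5 and 34.6 CPM (-0.95) to -0.43 by the same subtraction. In CD8 T cells the subtraction left Rps27l at 10.1% and 19.3%, and in macrophages at 23.6% and 34.3%.

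Rpl22l1 can replace Rpl22, a protein with a known role in T cell development. It gave 30.0% of the pair in knockout and 36.6% in control CD8 T cells and 17.2% and 27.7% in B cells, but 26.9% and 27.9% in NK cells, with overlapping intervals. Rpl22l1 itself was at 572 and 946 CPM in CD8 T cells (-0.72), while Rpl22 was at 1338 and 1636 CPM (-0.29). In neutrophils the pair rested on 4 and 34 UMIs of Rpl22l1. Rpl36al, a retrocopy of Rpl36a that is expressed widely, gave 40.8% and 40.6% in CD8 T cells and 47.2% and 53.8% in macrophages. In B cells the order was the opposite, with 46.2% and 36.9%. Rpl39l gave 0.0618% and 0.0235% of its pair in CD8 T cells, and Rpl10l was at 0 UMIs in both libraries there, beside 39222 and 79176 UMIs of Rpl10, which allows up to 0.00940% and 0.00466% of the pair. Paralog use thus differed between libraries for Rps27l and Rpl22l1 in CD8 T cells and not for Rpl36al.

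**Figure D5:**
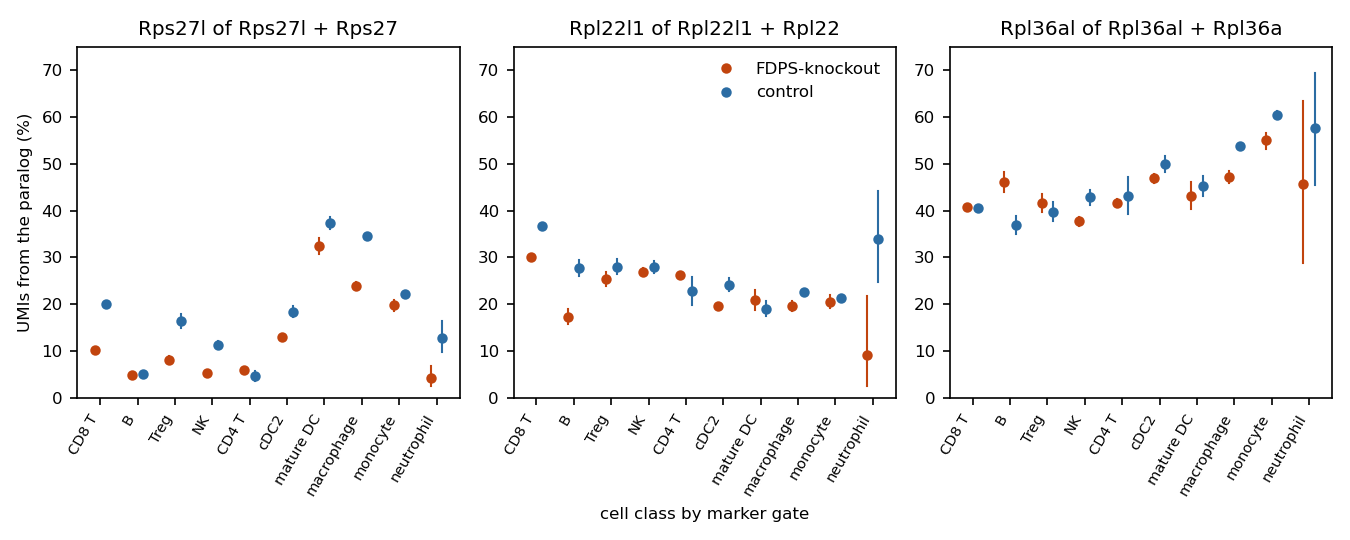
Percentage of the UMIs of a paralog pair that came from the paralog (vertical axis) in 10 cell classes (horizontal axis), for Rps27l, Rpl22l1 and Rpl36al, with exact 95% counting intervals as lines, the FDPS-knockout library in orange and the control library in blue. Rps27l is highest in mature dendritic cells (32.5% and 37.3%) and lower in the knockout library in CD8 T cells (10.2% and 20.0%); the neutrophil intervals are wide.

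Some members were a larger or smaller part of the ribosomal protein UMIs in certain classes in both libraries. Rps9 made up 5.42% of the ribosomal protein UMIs of knockout and 3.46% of control neutrophils, where the other classes had medians of 1.46% and 1.21%. Rps27 made up 4.47% and 2.82% of them, against 1.32% and 1.03%, and in B cells it was also a large part, at 2.11% and 1.75%. Rps18 was a small part in neutrophils, at 0.284% and 0.669% against 1.11% and 1.45%. In mature dendritic cells Rps19, the small subunit protein mutated in many cases of Diamond-Blackfan anaemia, made up 2.44% and 2.59%, against 1.26% and 1.44%. In CD4 T cells Rps15a made up 2.23% and 2.48%, and in CD8 T cells 1.97% and 2.23%, each against 1.30% and 1.45%. The members named here were taken from those past 1.5-fold against the other classes in the same direction in both libraries. Their shared direction was therefore set by that choice.

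Other genes tied to translation or TOP tracts were read from lists. Their counts used the total of all genes. They were not made with only genes of up to 25 kb in the total, a limit that gave fewer lower members. The part of gene length in their values was not tested. The first list held 26 further genes, most of them known to carry TOP tracts. Not all are genes of translation, for example Gas5, Snhg8 and Snhg12. Of the 26, 11 were past 1.5-fold lower and 1 higher in CD8 T cells (median -0.50). In NK cells 9 were lower and 0 higher (-0.45), and in monocytes and macrophages 3 and 0 (-0.31). Of all tested genes 8.57%, 11.9% and 14.6% were lower in these classes, and 18.7%, 13.7% and 14.9% higher. The 3 of 26 in monocytes and macrophages were thus below the background. B cells had 13 lower and 0 higher (-0.54), with a background of 13.7% and 14.5%. Treg had 13 and 1 (-0.59), with a background of 13.2% and 21.4%. Btf3, a subunit of the complex that binds nascent chains, was at 508 and 955 CPM in CD8 T cells (-0.90). The elongation factor gene Eef1b2 was at 782 and 1371 CPM (-0.81) there. Rack1, a protein of the small subunit that the symbol rule does not reach, was at 1257 and 2170 CPM (-0.79). Eif4a2, an RNA helicase of initiation, had the highest value, at 130 and 84.5 CPM (0.59). A TOP-like start was found in 10 of the 19 of these genes that had a promoter entry (52.6%).

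Ribosome assembly genes followed a different order of classes. Of those tested, 1 of 36 was past 1.5-fold lower in CD8 T cells (median -0.13), 6 of 35 in NK cells (-0.31) and 14 of 31 in monocytes and macrophages (-0.48), and 0 were higher in these 3 classes. Against the same background of 8.57%, 11.9% and 14.6% lower, the count in CD8 T cells was below it. In B cells 3 of 34 were lower and 5 higher (median 0.15), with a background of 13.7% and 14.5%. Treg went the other way, with 9 of 34 lower and 1 higher (median -0.38) and a background of 13.2% and 21.4%. Nhp2, a protein of the particles that modify ribosomal RNA, had the lowest value in CD8 T cells, NK cells, and monocytes and macrophages. In that order it was at 109 and 186 CPM (-0.74), 45.8 and 107 CPM (-1.14) and 35.2 and 86.0 CPM (-1.18). With melanoma RNA subtracted, Nhp2 in NK cells came to -0.72. Nop14 went from -0.85 to -0.71 there, and Polr1c from -0.91 to -0.46, short of 1.5-fold. Ddx21, a helicase of the nucleolus, was at 172 and 114 CPM in CD8 T cells (0.57). Genes of the mitochondrial ribosome were lower as well, with 19 of 77 in CD8 T cells (median -0.49), 28 of 76 in NK cells (-0.47) and 41 of 77 in monocytes and macrophages (-0.63), and 0, 0 and 1 higher. The background of lower genes was again 8.57%, 11.9% and 14.6%, over genes of all lengths. Genes outside the members with 75 to 396 coding bases had medians of -0.30, -0.30 and -0.35 in these classes. The counts of both lists were made without subtraction of melanoma RNA. With it, the lowest mitochondrial ones in NK cells, Mrpl53, Mrpl17 and Mrps18a, went from -1.45, -1.12 and -1.11 to -0.74, -0.77 and -0.81.

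Regulators of TOP messages had no common direction. Of those tested, 2 were past 1.5-fold lower and 3 higher of 16 in CD8 T cells, 2 and 4 of 17 in NK cells, and 1 and 2 of 17 in monocytes and macrophages. With a background of 8.57%, 11.9% and 14.6% lower and 18.7%, 13.7% and 14.9% higher, these counts were within 2 genes of the background shares. Eif4ebp1 encodes a repressor of cap-dependent initiation that mTORC1 inactivates. It had the lowest value in each of the 3 classes, at 8.63 and 43.9 CPM in CD8 T cells (-1.84), 13.7 and 119 CPM in NK cells (-2.72) and 68.6 and 204 CPM in monocytes and macrophages (-1.51). Control melanoma cells had Eif4ebp1 at 267 CPM, and after subtraction of their profile the values were -1.57, -2.28 and -1.51. Sesn3, a sestrin that restrains mTORC1, was at 86.1 and 29.4 CPM in CD8 T cells (1.41) and 159 and 97.8 CPM in NK cells (0.68). Myc, which drives the transcription of ribosomal genes, was at 36.1 and 49.9 CPM in CD8 T cells (-0.42) and 18.4 and 30.9 CPM in NK cells (-0.62). After subtraction of melanoma RNA both were short of 1.5-fold in NK cells, Sesn3 at 0.55 and Myc at -0.56.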

How the data were processed

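Single-cell RNA of viable CD45-positive cells was deposited as 1 count matrix per group. The deposited values were counts of UMIs per gene and barcode, and the file headers name Cell Ranger 7.2.0 (per the file headers). The submitters' processing notes give the build as mm10. The annotation of genes, the library chemistry and whether intronic reads were counted are not given in the sources used here. Reads that fit several near-identical copies, common among these genes, may be lost or split. The 5 pseudogene rows left out held 0.0552% (knockout) and 0.0514% (control) as many UMIs as the members.

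Cells with at least 200 genes and under 10% mitochondrial UMIs were kept (95.3% and 86.5% of barcodes) and gated on markers. Cells that passed the gates of more than 1 lineage were left out, which is how doublets were treated. Doublets of a melanoma cell and an immune cell with Ptprc were not caught, since the melanoma gate allowed no Ptprc. Cells in no gate were 17.4% and 16.4%. T cells that met no subtype rule, 1143 in knockout and 275 in control, were in no class either. UMIs were summed per class and library, scaled to CPM over all genes, and compared as log2 ratios with a pseudocount of 5. Genes named in the text were the 5 highest and 5 lowest members in CD8 T cells, NK cells, and monocytes and macrophages, members past 1.5-fold in most classes, the paralog pairs, and of each further list the 3 highest and 3 lowest. Values of Rplp1, Rplp2, Rps9, Rps15a and Rps19 were added after being seen. Lengths came from GENCODE vM21 on GRCm38. The members and lists were chosen with earlier results of these data known. The computation was tested on simulated data. Python 3.11.15, numpy 2.4.6, pandas 2.3.3 and scipy 1.17.1 were used. Alternatives changed the gates, cell limits, totals, scaling and free RNA.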

Additional observations from a re-analysis of the deposited data

How the results depend on the processing

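No paired analysis was possible because each group had 1 library, and for the same reason no replicate could be left out. The share of ribosomal protein UMIs was lower in the knockout library in every class that could be read under each alternative. The ratio of shares in CD8 T cells, NK cells, and monocytes and macrophages, which was 0.726, 0.749 and 0.770, was 0.736, 0.773 and 0.762 with 1 more marker in each lineage gate, 0.721, 0.733 and 0.775 with a mitochondrial limit of 5%, 0.714, 0.752 and 0.779 with 2000 to 40000 UMIs per cell, and 0.727, 0.746 and 0.764 with free RNA subtracted. It was 0.680, 0.742 and 0.802 without dividing cells, 0.722, 0.742 and 0.768 without mitochondrial genes in the total, 0.730, 0.753 and 0.774 without nuclear-retained RNAs in the total, and 0.695, 0.771 and 0.756 as the mean of the share per cell. Alternatives chosen after seeing the data gave 0.720, 0.747 and 0.790 with melanoma RNA subtracted, 0.774, 0.721 and 0.815 in cells of 10000 to 20000 UMIs, 0.884, 0.910 and 0.875 with only genes up to 25 kb in the total, and, in dividing cells only, 0.767 in CD8 T cells and 0.851 in monocytes and macrophages. Dividing NK cells were too few to compare.

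Members past 1.5-fold lower, 30, 24 and 22 in these classes, were 5, 2 and 10 with only genes up to 25 kb in the total, when 2 were higher in CD8 T cells. Scaling by the median ratio of genes, which moved the median of all tested genes in CD8 T cells by 0.14, gave 50 lower in CD8 T cells and 39 in NK cells. The stricter gate gave 15 in NK cells. Large over small subunit ratios, knockout over control, in NK cells went from 0.979 to 0.992 with the stricter gate and to 1.01, the opposite direction, with 2000 to 40000 UMIs, where members with a part of the ribosomal protein UMIs shifted past 1.5-fold went from 2 to 0. The cause was not tested, apart from the change of total that the 25 kb limit and the scaling make by construction. Of the values of single members under the alternatives, 382 kept their side of 1.5-fold, 2 passed it and 6 fell short of it. Free RNA was estimated at 3.85% of the UMIs in knockout and 2.05% in control CD8 T cells, and at 5.78% and 8.51% in neutrophils, where members had few UMIs.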
